A study of Mus musculus with 3 samples.

Results

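The liver tumour array compared a liver cancer with nontumour liver of the mouse that developed it, and was 1 of 3 arrays in the series. The mouse was transgenic for AID, activation-induced cytidine deaminase, the enzyme that deaminates cytosine in antibody genes of B cells. Tumour and nontumour tissue both carried the transgene, so the comparison is between tissues of a transgenic animal and has no wild-type arm. The promoter that drove the transgene and the animal's age and sex do not appear in the sources used here. The array was chosen as the only sample labelled as liver cancer. All 41534 gene spots of both channels were read, which stand for 27673 genes, and 25601 of these were measured in at least 1 channel without saturation in both.

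Each tissue's RNA was labelled with a fluorescent dye, Cy3 or Cy5, and both were read from the same spots, so each gene has a value in each channel and a ratio, log2(Cy5/Cy3). The direction of that ratio is not settled. The dye labels give Cy3 to the tumour, whereas the authors' deposited table lists 518 spots as up in the tumour, and all 518 were brighter in Cy5. All 433 spots that this table lists as down were brighter in Cy3. Each gene is therefore named by its brighter channel, as Cy5-high or Cy3-high. By the deposited table's headings Cy5 was the likely tumour channel, and by the dye labels every sign turns. With 1 array, 1 mouse and no exchange of dyes there is no replicate check, no test was made and no p-value is given for any gene, and a probe's own dye bias cannot be told apart from a difference between the tissues. In whole tissue, fewer cells of a type and less RNA per cell cannot be told apart either.

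Adult hepatocytes make most plasma proteins, clear ammonia through the urea cycle and modify drugs and steroids with cytochromes P450, transferases and esterases. Genes of the fetal liver such as Afp, Igf2 and H19 are silenced after birth and can be expressed again in regenerating liver and in liver tumours. Hepatocytes also differ along the lobule, between a periportal zone rich in urea cycle enzymes and a pericentral zone under Wnt control, and between the sexes, under growth hormone.

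Few genes differed by 2-fold or more. Of the 25601 genes measured, 39 (0.152%) exceeded 2-fold towards Cy5 and 18 (0.0703%) exceeded it towards Cy3. The median gene had a log2 ratio of 0.01, 52.85% of genes lay above 0, and 97.7% lay within 0.5 of 0. These shares over all genes are the ones to set beside the list counts below. At 1.5-fold, 219 genes were Cy5-high and 130 Cy3-high. The counts at 2-fold depend on the processing. With a background offset of 16 in place of 50 they were 72 and 57. By the scanner software's own ratio, which differs in both background correction and normalization, they were 540 and 420, and with ratios centred on the median in place of loess 110 and 7. The Cy5-high share of these genes was 68.4% with the main setting and 55.8, 56.2 and 94.0% with these alternatives. All 39 and all 18 genes were also in the matching lists of the authors' deposited table, which holds the same scanner ratio. The threshold cut through a continuum: the Cy5-high genes nearest to it were Impact at 1.03 and Gcnt1 at 1.06, and Il1r1 at 0.997 lay just under it. On the Cy3 side, LOC620807 at -1.07 was just inside, and Mup3 at -0.97 and Tdo2 at -0.97 just outside.

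**Figure D1:**
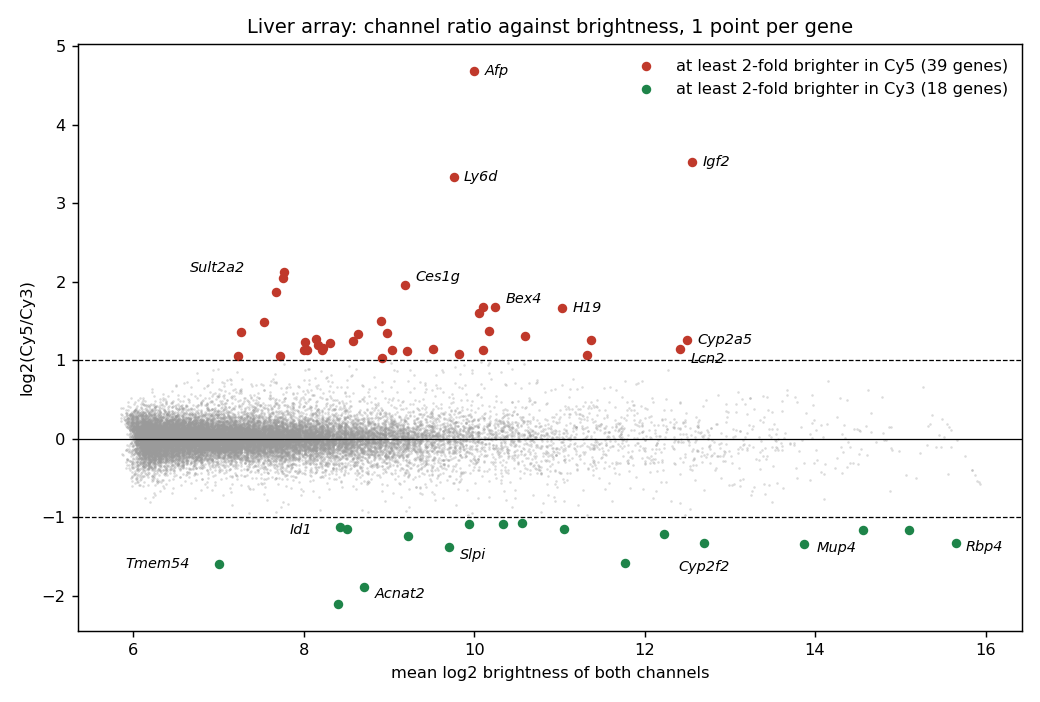
Log2(Cy5/Cy3) of each measured gene on the liver array against its mean log2 brightness over both channels, with dashed lines at 2-fold. The 39 Cy5-high genes (red) reach from 1.03 to 4.69, the 18 Cy3-high genes (green) from -1.07 to -2.10, and Afp, Igf2 and Ly6d stand above the other Cy5-high genes.

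The largest ratio belonged to Afp, alpha-fetoprotein, the main serum protein of the fetus. Its only probe (chromosome 5, 90479870 to 90479929, no build named in the sources used here) read 6470 in Cy5 and 231 in Cy3, against a median of 127 in Cy3 over spots that carry no gene. The normalized difference was 25.8-fold (4.69, scanner error 0.44). In the authors' deposited table, whose scanner ratio differs in background correction and normalization and has no offset, the same gene stands at 38.9-fold. Igf2, a fetal growth factor, had the next largest ratio: its probes read 42500 and 15600 in Cy5 and 2860 and 783 in Cy3. The gene's ratio was 3.53 (SD 0.38 between 2 probes). Ly6d, a small surface protein anchored by a lipid, read 3410 in Cy5 and 288 in Cy3 (3.33, scanner error 0.32).

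The 2-fold genes among fetal liver and liver tumour markers lay in the Cy5-high direction only. Of 31 genes listed as fetal liver and liver tumour markers, 30 were measured. Of these 7 were Cy5-high, beside 0.152% of all genes, and 0 Cy3-high. Above 0 lay 20, beside 52.85% of all genes, with a median of 0.20 against 0.01. Beside Afp, Igf2 and Ly6d, these were H19, Meg3, Bex1 and Bex4. The marker list was drawn up with such genes known, so its count is a description. Other members of the list did not follow: the keratins Krt8 and Krt18 of the hepatocyte cytoskeleton had ratios of -0.52 and -0.30, the fetal surface protein Dlk1 -0.04, and the RNA-binding proteins Lin28b and Igf2bp1 -0.03 each. Gpc3, a proteoglycan used as a liver tumour marker, was near background at 145 in Cy5 and 161 in Cy3 (0.27, scanner error 0.92). The known repressors of Afp, Zhx2 and Zbtb20, had ratios of 0.05 and 0.44. By the scanner's own ratio, a Zbtb20 spot stands in the authors' deposited list of up spots at a log2 ratio of 1.22.

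Of the imprinted genes listed here, which are expressed from 1 parental copy, those that were Cy5-high lay at 2 places. The list is not complete and does not hold Impact, which was Cy5-high at 1.035 on 1 probe. H19, a noncoding RNA, and Igf2 lie 75.4 kb apart on chromosome 7 by their probes, and both H19 probes were brighter in Cy5, at 6490 and 3350 against 1470 and 702 in Cy3 (1.67, SD 0.14). On chromosome 12, the noncoding RNA Meg3 had 5 probes that did not read alike. Their ratios were 1.11, 0.16, 0.63, 0.70 and 2.70 in order along the chromosome, with a mean of 1.06 and an SD of 0.98, so the call of Meg3 rests mainly on the last probe, which read 1320 in Cy5 and 206 in Cy3. The noncoding genes next to it were dim and not alike: Rian had 0.39 (scanner error 2.18) and 1.07 (error 0.42) at its probes, a transcript named only as AK086774 that lies between them -0.29 (error 1.87), and Mirg 0.88 (error 0.78). The protein-coding neighbour Dlk1 had -0.16 and 0.07 at its probes. Of 23 listed imprinted genes measured, 3 were Cy5-high, beside 0.152% of all genes, and 0 Cy3-high. The 13 that lay above 0 are near the share over all genes, 52.85%, and the median was 0.04. The Igf2 receptor gene Igf2r, which clears the growth factor, was at 0.47 and the growth inhibitor Cdkn1c at 0.05.

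Most of the insulin-like growth factor axis did not differ by 2-fold. Of 18 members measured, Igf2 and Igfbp6 were Cy5-high, beside 0.152% of all genes, 0 were Cy3-high and the median was 0.08. Igfbp6, a binding protein with a preference for Igf2, read 1000 in Cy5 and 302 in Cy3 (1.51, scanner error 0.23). Igfbp7 was at 0.49 and the growth hormone receptor Ghr at 0.45. Igf1, the adult liver's growth factor, was at -0.19 (SD 0.27 between 3 probes) and Igfbp4 at -0.45. Igfbp1 was saturated in both channels and has no ratio.

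**Figure D2:**
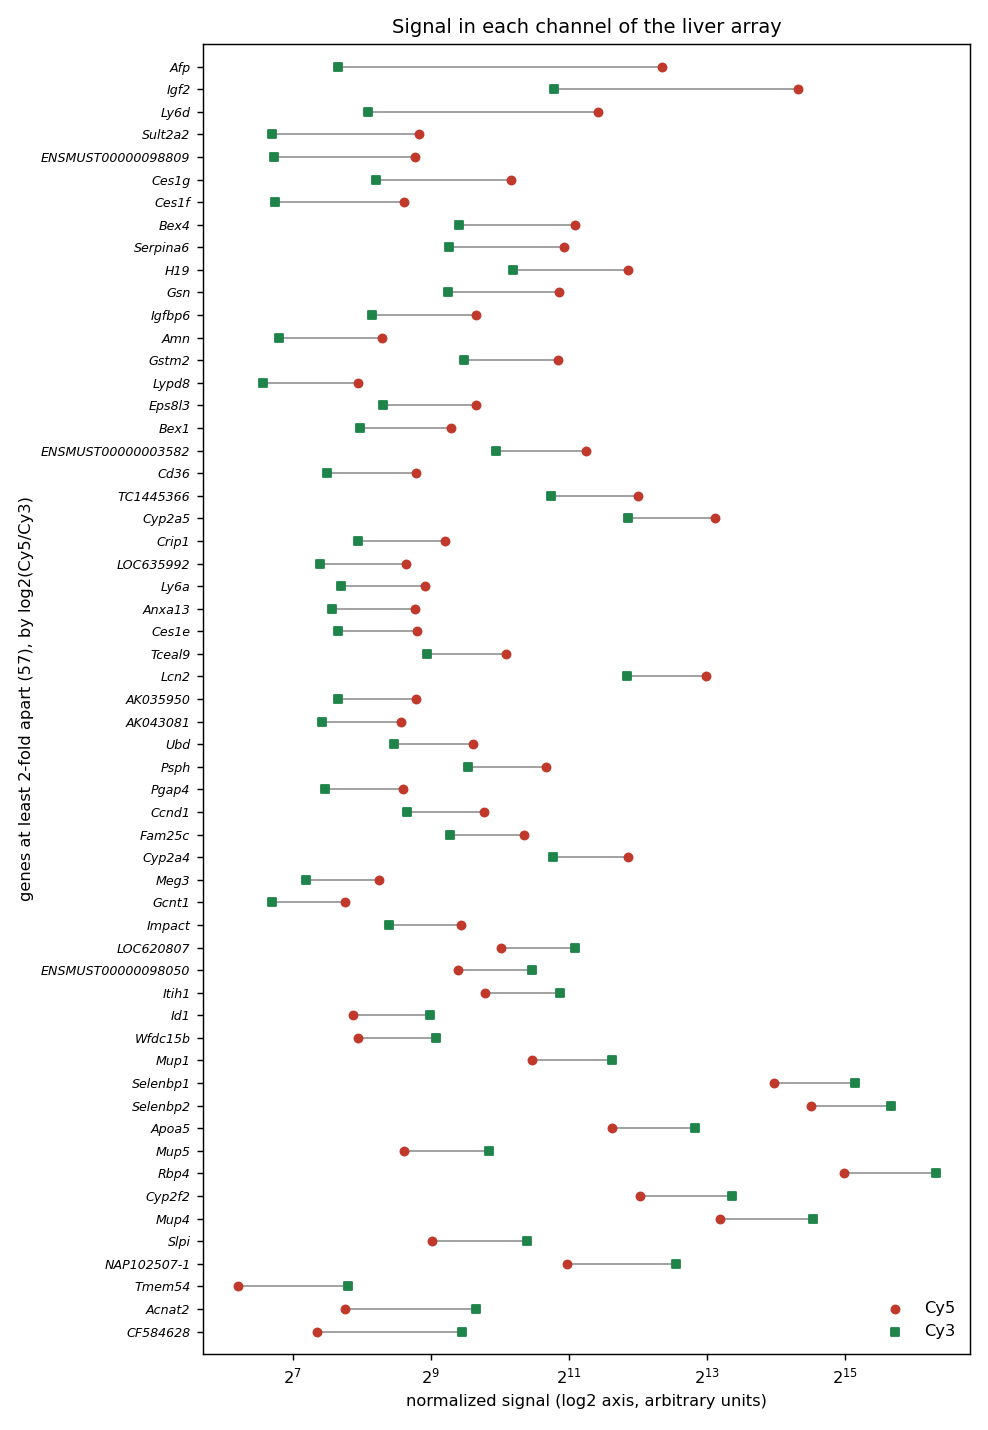
Normalized signal of the 57 genes at least 2-fold apart in Cy5 (red circles) and Cy3 (green squares), on a log2 axis and in order of log2(Cy5/Cy3). Signals differ between genes by probe as well as by level, so only the distance between the points of a row compares like with like. Afp has the longest line, and Rbp4, Selenbp1, Selenbp2 and Mup4 lie at the bright end of the Cy3-high genes.

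Promoter sequences are shown for 6 genes whose transcripts lay at least 2-fold apart, 3 from each side, chosen so that each belongs to a different gene group. The windows are RefSeq's on GRCm38.p6, from 250 bases before to 50 bases after the annotated start. Acnat2 and Apoa5 have 2 windows each, of which only the first was searched and is shown. Capitals mark matches on either strand to short motifs: the TATA box (TATAAA), the CCAAT box (CCAAT), and short sites of the liver factors HNF1 (GTTAAT) and HNF4 (CAAAGT). The Cy5-high genes are Afp (chr5:90490464-90490763, plus strand), Ces1g (chr8:93337160-93337459, minus strand) and Cyp2a5 (chr7:26835089-26835388, plus strand). The Cy3-high genes are Mup4 (chr4:59960618-59960917, minus strand), Acnat2 (chr4:49408102-49408401, minus strand) and Apoa5 (chr9:46268358-46268657, plus strand).
Afp: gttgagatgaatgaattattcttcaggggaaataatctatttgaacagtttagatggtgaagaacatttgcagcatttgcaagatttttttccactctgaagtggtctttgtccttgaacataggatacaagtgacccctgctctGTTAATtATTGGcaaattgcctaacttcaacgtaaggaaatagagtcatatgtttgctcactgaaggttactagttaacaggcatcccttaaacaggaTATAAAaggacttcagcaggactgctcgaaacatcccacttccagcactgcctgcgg
Ces1g: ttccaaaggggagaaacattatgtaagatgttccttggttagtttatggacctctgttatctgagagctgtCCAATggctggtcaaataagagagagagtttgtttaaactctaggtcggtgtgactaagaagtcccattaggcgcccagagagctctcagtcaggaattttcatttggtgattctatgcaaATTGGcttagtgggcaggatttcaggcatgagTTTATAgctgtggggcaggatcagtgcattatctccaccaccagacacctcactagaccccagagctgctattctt
Cyp2a5: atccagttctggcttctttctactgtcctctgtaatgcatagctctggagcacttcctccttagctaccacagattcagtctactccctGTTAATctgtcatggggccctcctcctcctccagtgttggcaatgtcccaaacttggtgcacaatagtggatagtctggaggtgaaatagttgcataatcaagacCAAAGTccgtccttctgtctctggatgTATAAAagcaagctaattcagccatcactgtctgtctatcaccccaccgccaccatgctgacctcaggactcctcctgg
Mup4: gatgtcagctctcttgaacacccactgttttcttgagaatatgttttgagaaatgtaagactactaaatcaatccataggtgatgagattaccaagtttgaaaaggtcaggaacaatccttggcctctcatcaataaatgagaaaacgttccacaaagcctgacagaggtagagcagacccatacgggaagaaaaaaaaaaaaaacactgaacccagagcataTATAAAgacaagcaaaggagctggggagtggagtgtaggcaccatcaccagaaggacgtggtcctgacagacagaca
Acnat2: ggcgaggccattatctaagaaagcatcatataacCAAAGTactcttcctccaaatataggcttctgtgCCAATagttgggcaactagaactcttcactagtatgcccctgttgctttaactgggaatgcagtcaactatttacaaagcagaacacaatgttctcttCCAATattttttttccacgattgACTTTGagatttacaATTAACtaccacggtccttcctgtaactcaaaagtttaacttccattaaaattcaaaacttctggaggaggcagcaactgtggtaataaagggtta
Apoa5: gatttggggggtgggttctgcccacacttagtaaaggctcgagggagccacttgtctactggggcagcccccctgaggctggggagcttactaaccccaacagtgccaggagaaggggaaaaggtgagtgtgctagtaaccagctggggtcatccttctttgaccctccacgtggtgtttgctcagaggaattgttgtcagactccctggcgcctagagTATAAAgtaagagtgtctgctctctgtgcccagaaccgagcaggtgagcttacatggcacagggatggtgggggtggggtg

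A TATA box stood 26 to 31 bases before the annotated start in Ces1g, Cyp2a5, Mup4 and Apoa5, in Ces1g on the opposite strand, and 7 bases before it in Afp. None was found in the Acnat2 window shown. The HNF1 short site GTTAAT was in Afp, Cyp2a5 and Acnat2. Windows were found for 24 of the 39 Cy5-high and 11 of the 18 Cy3-high genes. TATAAA was in 8 of these 24 and 4 of these 11, beside 14.2% of 27025 windows, the first of each gene symbol. GTTAAT was in 3 and 2, beside 7.2% of all windows, CAAAGT in 6 and 2, beside 14.3%, and CCAAT in 12 and 5, beside 37.9%. The antioxidant element core TGACNNNGC was in 3 and 1, beside 12.5%, and the STAT motif TTCNNNGAA in none of either, beside 8.47%. A match describes letters only.

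Genes that modify drugs and steroids split between the channels. Among sulfotransferases, carboxylesterases and glucuronosyltransferases, 4 of 33 measured were Cy5-high, beside 0.152% of all genes, 0 were Cy3-high and the median was 0.16. Neighbouring carboxylesterases on chromosome 8, enzymes that hydrolyse drug and lipid esters, were all Cy5-high within 100.7 kb. Ces1g read 1680 and 1200 in Cy5 against 369 and 264 in Cy3 at its probes (1.96, SD 0.10), Ces1f 473 against 160 (1.87, scanner error 0.42) and Ces1e 549 against 237 (1.16, error 0.26). Their relatives Ces1c and Ces1d were at 0.18 and 0.25, and Ces3b at -0.54.

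Sult2a2, a sulfotransferase of steroids and bile acids, had probes that disagreed, at 3.02 and 1.24, with Cy5 readings of 1130 and 268 and Cy3 readings of 167 and 155. A probe named only by the transcript ENSMUST00000098809, to which the brighter Sult2a2 probe is also assigned in the scanner file, was at 2.04. The estrogen sulfotransferase Sult1e1 was at 0.88. Members of the Ces and Sult families are close copies, so the assignment to a member is uncertain and these are not independent measurements.

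Glutathione transferases and targets of NRF2, the regulator of antioxidant genes, had a median of 0.15 against 0.01 over all genes: 27 of 41 were above 0, beside 52.85% of all genes, 1 was Cy5-high and 0 were Cy3-high. Gstm2 read 2310 in Cy5 and 648 in Cy3 (1.37, scanner error 0.20). The alpha class members Gsta2, Gsta1 and Gsta3 were at 0.97, 0.95 and 0.73, the carbonyl reductases Cbr1 and Cbr3 at 0.90 and 0.87, and the quinone reductase Nqo1 at 0.76. Gstp1, a transferase that is known from lesions of rat liver, lay on the other side at -0.49 (SD 0.01 between 2 probes), and Gsto1 at -0.67. The medians of the transferase lists were above 0 under each of the 9 alternative settings.

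Cytochromes P450 lay mostly to the Cy3 side, with 31 of 43 below 0, beside 12070 of all 25601 genes. Their median of -0.13 turned to 0.09 when ratios were centred on the median without loess. Cyp2a5 and Cyp2a4, which hydroxylate coumarin and steroids, were Cy5-high. Cyp2a5 read 14200 and 8890 in Cy5 against 3650 and 2540 in Cy3 (1.26, SD 0.10), and Cyp2a4, a close copy that its probes may not tell apart, had 1.07 (SD 0.34). Cyp2f2, a periportal enzyme that lies on the same stretch of chromosome 7, was Cy3-high at 5290 in Cy5 and 8470 in Cy3 (-1.33, scanner error 0.19), and Cyp2a12 between them was at -0.22. Cyp4f14 was at -0.92, Cyp2c23 at -0.71 and Cyp3a11, a main drug-metabolizing P450, at -0.52. Cyp7a1, the rate-limiting enzyme of bile acid synthesis, was at 0.26 and Cyp2e1 at -0.01.

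Plasma proteins of hepatocytes were among the Cy3-high genes. Rbp4, the plasma carrier of retinol, read 41400 in Cy5 and 64400 in Cy3 (-1.33, scanner error 0.19), Apoa5, which regulates plasma triglycerides, 3980 and 5890 (-1.21, error 0.19), and Itih1, a plasma protein that stabilizes hyaluronan, 1120 and 1590 (-1.08, error 0.19). Of 33 plasma protein genes measured, these 3 were Cy3-high, beside 0.0703% of all genes, and 1 was Cy5-high. Below 0 lay 24, beside 12070 of all 25601 genes, with a median of -0.19, which turned to 0.16 with median centring. The exception was Serpina6, the plasma carrier of corticosteroids, at 2450 in Cy5 and 564 in Cy3 (1.68, scanner error 0.21). Transferrin (Trf) was at -0.53, Apob at 0.20 and transthyretin (Ttr) at 0.53. The listed genes Ahsg, Alb, Ambp, Apoc1, Apoe and Serpina1d were saturated in both channels and are in no count or median here. The same holds for Fgb and Fgg of the coagulation list. Coagulation and complement factors had 28 of 36 below 0 and a median of -0.16, with no member at 2-fold in either channel, C8a at -0.85 and Proc at 0.52, and this median turned to 0.17 with median centring.

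The difference between settings follows brightness. Probes with a log2 brightness of 12 or more had a median raw log2(Cy5/Cy3) of 0.63 and those under 7 of -0.54, and loess brought these medians to -0.03 and 0.01. Median centring left them at 0.37 and -0.15. Bright hepatocyte genes therefore stand lower with loess, and a ratio of theirs in the range of a list median has no settled side. With median centring 10 of the 15 named Cy3-high genes fell short of 2-fold: Mup1, Mup4, Mup5, Cyp2f2, Rbp4, Apoa5, Selenbp1, Selenbp2, Wfdc15b and Id1 were then between -0.94 and -0.75.

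Acnat2, an acyltransferase that joins fatty acids to amino acids, read 278 in Cy5 and 735 in Cy3 (-1.89, scanner error 0.25). It lies 205.5 kb from Pgap4, which was Cy5-high at 1.13, and its close relative Acnat1 was at -0.33. The lowest ratio on the array was that of a transcript named only as CF584628, at 210 and 657 (-2.10, error 0.28). Tmem54, a membrane protein, read 96.8 in Cy5 and 269 in Cy3 (-1.59, error 0.59). Selenbp1 and Selenbp2, selenium-binding proteins that are close copies on chromosome 3, read 20500 and 29700 in Cy5 and 28700 and 41400 in Cy3, and both had -1.16. Slpi and Wfdc15b, protease inhibitors of the same family on chromosome 2, had -1.38 and -1.14, with Cy3 readings of 1160 and 520. Without the filter on brightness a dim probe enters the mean of Slpi, which was then at -0.67 and no longer at 2-fold.

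The major urinary proteins, pheromone carriers that the liver secretes in large amounts under growth hormone, were together on the Cy3 side. The array held 4 of the 15 listed Mup symbols, 3 of which were Cy3-high and 0 Cy5-high. Mup4 read 11900 in Cy5 and 18900 in Cy3 (-1.33, scanner error 0.19), Mup5 492 and 821 (-1.24, error 0.20) and Mup1 had 3 probes between -0.96 and -1.41. Mup3 was at -0.97. Another 3 probes of the same cluster on chromosome 4, named NAP102507-1, ENSMUST00000098050 and LOC620807, had -1.58, -1.08 and -1.07, which makes 6 of the 18 Cy3-high names from a stretch of 1395 kb. Mup genes are nearly identical, so these are not independent measurements. The median of the 4 genes was -1.19, and -0.86 with median centring.

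Genes known to be higher in male liver lay mostly on the Cy3 side, with 2 of 22 Cy3-high, beside 0.0703% of all genes, and 0 Cy5-high. Below 0 lay 18, beside 12070 of all 25601 genes, and the median of -0.20 was below 0 under each alternative setting. The Cy3-high members were Selenbp2 and Mup1. Hsd3b5, a steroid enzyme of male liver, was not well above background in either channel, at 79 in Cy5 and 130 in Cy3. Genes known to be higher in female liver had 3 of 28 Cy5-high, beside 0.152% of all genes, and 0 Cy3-high. The 3 were Sult2a2, Cd36 and Cyp2a4, with Sult1e1 at 0.88. The median of the 28 was -0.08, with 12 above 0, and it turned to 0.03 with median centring. Other members such as Cyp2c40 and Cyp3a41a were at -0.51 and -0.46.

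By zone, pericentral genes had a median near that of the array, and that of periportal genes was below 0 with loess but not with median centring. Of 26 pericentral and Wnt-dependent genes, 2 were Cy5-high, beside 0.152% of all genes, and 0 Cy3-high. Above 0 lay 17, beside 52.85% of all genes, with a median of 0.08 against 0.01. The cyclin Ccnd1, which drives entry into the cell cycle, read 1080 in Cy5 and 397 in Cy3 (1.11, scanner error 0.20), and Cyp2a5 was the other. Glutamine synthetase (Glul) was at 0.66, though its 2 probes differed by an SD of 0.73, and Oat at 0.60. The Wnt targets Axin2 and Lgr5 were at -0.03 and 0.07, with readings of 171 or less. Of 23 periportal genes, Cyp2f2 was Cy3-high and 16 were below 0, with a median of -0.19 that turned to 0.16 with median centring. The glutaminase Gls2 was at -0.81 and the adhesion protein Cdh1 at -0.76.

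Urea cycle and amino acid enzymes lay almost all on the Cy3 side: 34 of 38 were below 0, with no member at 2-fold and a median of -0.31, or -0.005 with median centring. Tdo2, which opens tryptophan breakdown, read 2415 in Cy5 and 3140 in Cy3 (-0.97, SD 0.13 between 2 probes). Ahcy and Cbs of the methionine pathway were at -0.90 and -0.78, and Nags, which makes the activator of the urea cycle, at -0.81. Of the cycle itself, Asl was at -0.62, Ass1 at -0.37, Arg1 at -0.31, Otc at -0.15 and Cps1 at -0.13. Glucose metabolism genes had a median of -0.30 over 20 members, 13 of them below 0, and 0.04 with median centring. Ugp2, which feeds glycogen synthesis, was at -0.74 and the glucose phosphatase G6pc at 0.47.

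Lipid genes were mixed. Fatty acid oxidation, uptake and storage had 1 of 34 Cy5-high and a median of 0.06. The fatty acid transporter Cd36 read 486 and 593 in Cy5 against 208 and 235 in Cy3 (1.28, SD 0.005), the liver fatty acid binding protein Fabp1 was at 0.62, and the lipid droplet proteins Plin5 and Plin2 at -0.75 and -0.50. Fatty acid and cholesterol synthesis had no member at 2-fold among 31 and a median of -0.03, and Scd2, a desaturase, was at 0.78. Bile acid genes had 18 of 26 below 0, a median of -0.12 that turned to 0.15 with median centring, Slco1a4 at -0.87 and Slc51b at 0.88.

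**Figure D3:**
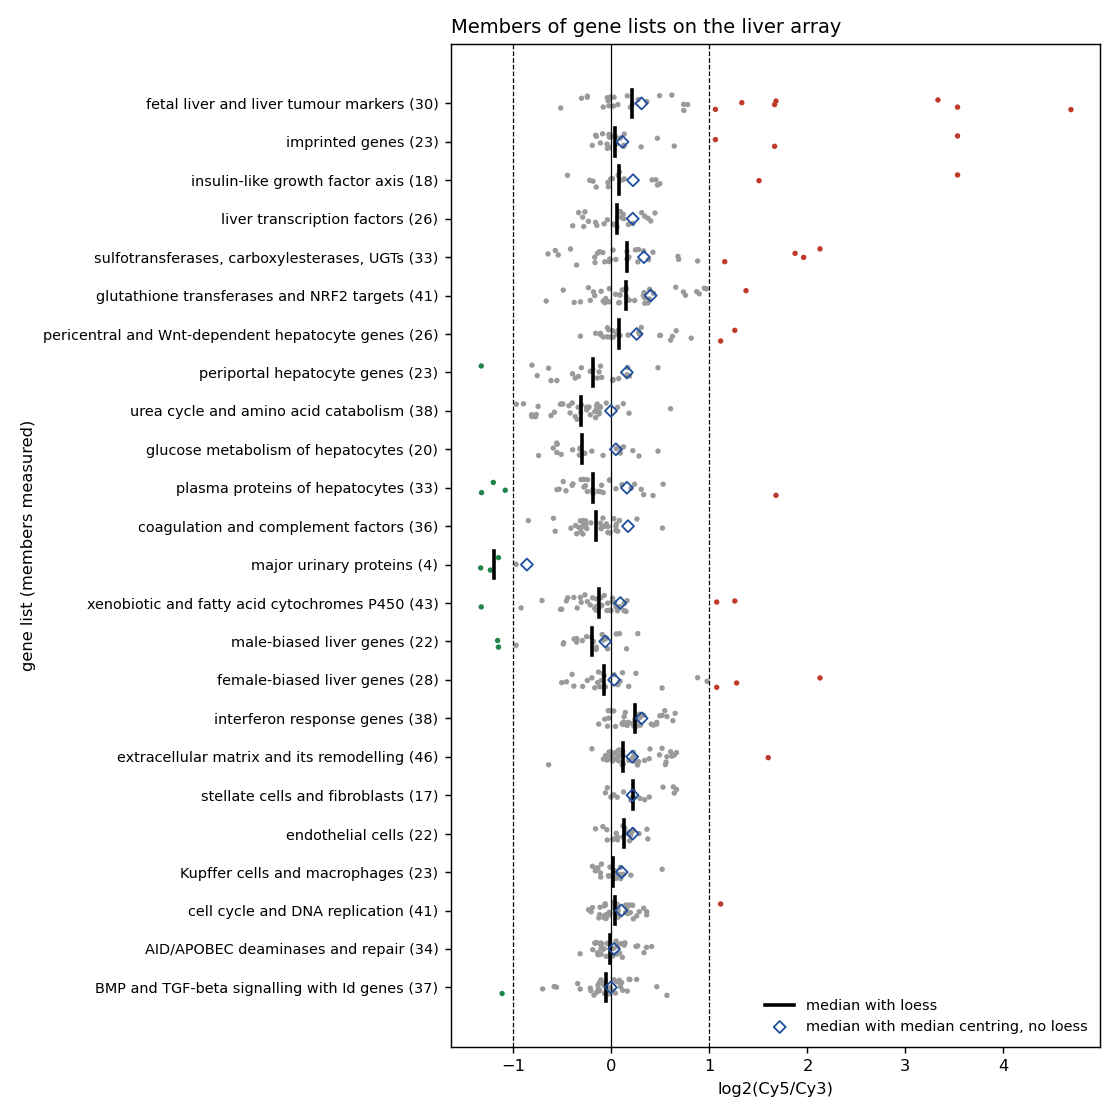
Log2(Cy5/Cy3) of the measured members of 24 gene lists, with members at least 2-fold Cy5-high in red and Cy3-high in green. Black bars are list medians with loess and open blue diamonds are medians with median centring. The diamonds of the plasma protein, coagulation, P450, periportal and glucose lists cross 0, and that of the major urinary proteins stays at -0.86.

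Interferon response genes lay to the Cy5 side with small ratios. Of 38 measured, 32 were above 0, beside 52.85% of all genes, and none was at 2-fold. The median was 0.24, above 0 under each alternative. The immunity-related GTPases Igtp and Irgm2 read 1450 and 1130 in Cy5 against 669 and 546 in Cy3 (0.65 and 0.63), and the immunoproteasome subunit Psmb9 was at 0.57. Ubd, a ubiquitin-like protein that cytokines induce and that was not on this list, was Cy5-high at 965 against 358 (1.14, scanner error 0.21). MHC genes had a median of -0.02 over 20 members. Lcn2, a siderophore-binding acute phase protein, was Cy5-high at 10200 against 3000 (1.14, error 0.18), while the acute phase list had a median of -0.04 over 30 and Hp, haptoglobin, was at -0.55.

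Extracellular matrix genes had 37 of 46 above 0, 1 Cy5-high and a median of 0.12. The member at 2-fold was Gsn, gelsolin, which severs actin filaments and is also secreted, at 2310 in Cy5 and 563 in Cy3 (1.60, scanner error 0.21). Col1a2 was at 0.66, decorin (Dcn) at 0.64 and osteopontin (Spp1) at 0.62. Fibronectin (Fn1) was at -0.64, with an SD of 0.68 between 3 probes. Among markers of other cells, 14 of 17 of stellate cells and fibroblasts were above 0, with a median of 0.22. Their summed signal was 6636 in Cy5 and 5120 in Cy3. Col1a1, Col1a2, Col3a1, Dcn and Lum are also on the matrix list, so the counts of these lists share them. The members below 0, Tagln, Ngfr and Acta2, were at -0.06, -0.04 and -0.01. Of 22 endothelial markers 18 were above 0, with a median of 0.12 and sums of 4623 and 4211. The part of these cells in the matrix result was not tested.

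Medians of most other cell marker lists were near that of the array. Kupffer cell and macrophage markers had a median of 0.01 over 23 genes and summed signals of 8425 in Cy5 and 8652 in Cy3. The bile duct list had -0.004 over 11, with Krt19 at -0.08 and Epcam at -0.25, T and NK cells 0.04 over 24, B and plasma cells 0.05 over 17, red blood cells -0.05 over 12, fat cells 0.02 over 12, muscle 0.02 over 17 and pancreatic acinar cells 0.02 over 16. Summed signals were 3705 in Cy5 and 2853 in Cy3 for bile duct, and 13890 and 15860 for red blood cells. Gut and gallbladder epithelium had a median of 0.11 over 16, close to the endothelial one. Of these 16, 12 were above 0, and the sums were 26850 and 19430. The bile duct, T and NK cell, red blood cell, fat, muscle and gut medians changed sign under at least 1 alternative, as did those of the acute phase, MHC, lipid synthesis and oncogene lists. Neutrophil markers had a median of 0.14 over 14, led by S100a9 at 1700 in Cy5 and 669 in Cy3 (0.87) and S100a8 at 0.80, while the granule proteins Mpo and Elane were at 0.06 and 0.14. The part of these cells in Lcn2, which neutrophils also make, was not tested. Hepatocyte markers were bright in both channels: Alb, albumin, was saturated at 65200 in Cy5 and 65300 in Cy3, and Apoa1 and Tat read 24800 and 24500 in Cy5 and 19300 and 17300 in Cy3. The 8 hepatocyte markers measured had a median of -0.24, which turned to 0.16 with median centring.

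Genes of growth and genome maintenance differed little with the main setting. Among 41 cell cycle genes Ccnd1 was Cy5-high, none was Cy3-high and the median was 0.03. By the scanner software's ratio 3 of them were Cy5-high, 0 Cy3-high, and the median was 0.19. By that ratio 1 gene each of the p53 list and of the deaminase and repair list was Cy5-high. No gene with a log2 brightness below 7, 44.64% of those measured, was at 2-fold here, where the offset pulls dim ratios towards 0. Mki67 was at 0.28, Birc5 at 0.36 and Top2a at 0.03, with Mki67 and Top2a dim at 161 and 101 in Cy5. Oncogenes and tumour suppressors had no member at 2-fold among 34, with Myc at 0.15, Ctnnb1 at 0.13, Trp53 at 0.11 and Egfr, the receptor for epidermal growth factor, at -0.38 (SD 0.45 between 6 probes). Among p53 targets Phlda3 was at 0.68 and Perp at -0.65. The 34 deaminases and repair genes had a median of -0.01, or 0.03 with median centring, and none at 2-fold, with Apobec1 at 0.41, Apobec3 at 0.36 and Ung at 0.05.

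Id1, an inhibitor of differentiation factors and a target of BMP signalling, was the only member of its pathway list at 2-fold. Its probes read 286 and 307 in Cy5 against 478 and 508 in Cy3 (-1.12, SD 0.01). Id2 and Id3 were at -0.32 and -0.15, Bmp7 at -0.70 (SD 0.03 between 2 probes), the BMP target Hamp, hepcidin, at -0.22 and Smad7 at -0.06, and the 37 members had a median of -0.06, below 0 under each alternative. Psph, which makes serine, was Cy5-high at both probes (1960 and 2110 in Cy5, 656 and 685 in Cy3, 1.13), while Phgdh and Psat1 of the same pathway were at 0.31 and 0.24. Chaperones of the unfolded protein response lay above 0, with Creld2 at 0.59, Hsp90b1 at 0.56 and Hspa5 at 0.38. Of 32 members of that list 21 were above 0, beside 52.85% of all genes, with a median of 0.14. Liver transcription factors had no member at 2-fold among 26, with a median of 0.06, Hnf4a at -0.28, Cebpa at -0.23 and Esr1 at 0.40.

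Some other Cy5-high genes lay in the same stretch of a chromosome, with genes that were not at 2-fold between them. Bex1, Bex4 and Tceal9, small X-linked proteins of related families, lie within 107 kb and read 775, 2720 and 1360 in Cy5 against 278, 618 and 469 in Cy3 (1.33, 1.68 and 1.15). The other 2 genes measured in this stretch, Tceal8 and Tceal7, were at 0.71 and -0.27, and their relatives Bex2 and Bex3 at 0.36 and 0.03. Ly6d and Ly6a on chromosome 15 were at 3.33 and 1.22, and the 12 other genes measured between them had a median of 0.05, with Ly6e at 0.41, Ly6i at 0.06, Ly6k at 0.03 and Ly6m at -0.18. Ly6c1 was at 0.89 with probes that differed by an SD of 1.09. Eps8l3, an adaptor protein of the actin skeleton, lies within the same 88.95 kb as Gstm2 and was at 1.35. The 6 other genes measured between them had a median of 0.08, with Gstm3 at 0.33 and Gstm5 at -0.38. Amn, a membrane receptor subunit, was at 1.49 (scanner error 0.41), and Crip1, a small LIM protein, at 1.25 (SD 0.12 between 2 probes). Lypd8 and Anxa13, proteins of gut epithelium, were at 1.37 and 1.20, each with probes far apart (SD 0.97 and 0.79).

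**Figure D4:**
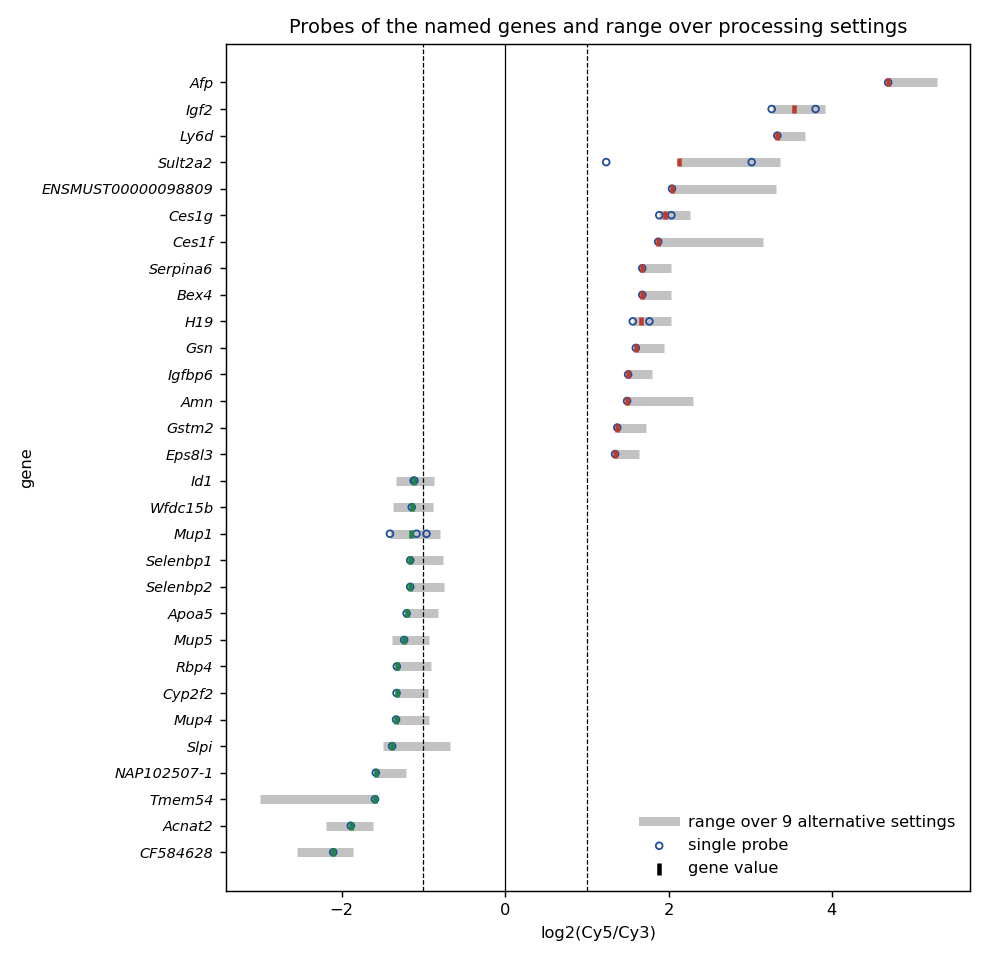
Log2(Cy5/Cy3) of the 15 highest and 15 lowest named genes, with the gene value as a coloured tick, single probes as open circles and the range over 9 alternative settings as a grey bar. No bar crosses 0, and 10 of the 15 Cy3-high genes fall short of 2-fold with median centring.

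Ratios also differed between chromosomes, by small amounts. Over 10144 probes with a log2 brightness of 8 or more, 52.4% lay above 0. On chromosome 15 this share was 68.5% of 448 probes, on chromosome 18 65.6% of 250, on chromosome 16 64.5% of 324 and on chromosome 13 61.4% of 347. On chromosome 4 it was 34.2% of 644 probes and on chromosome 19 36.4% of 357. The medians ran from 0.10 on chromosome 15 to -0.09 on chromosome 4, beside 0.01 over all these probes. Relative to all probes, chromosome 15 stayed between 0.08 and 0.09 and chromosome 4 between -0.11 and -0.10 over the settings tried. The probes were fixed by the main setting, so settings that only change which spots are kept could hardly move these values. Medians in windows of 10 Mb with at least 10 probes were above 0 in 9 of 10 windows of chromosome 15 and in 4 of 15 of chromosome 4. At 1.5-fold, chromosome 15 had 20 probes on the Cy5 side and 1 on the Cy3 side, and chromosome 4 had 4 and 32. Probes of the nearly identical Mup genes, from a stretch of 1395 kb, are among these 32, and no count was made without them. The brightness limit and the comparison by chromosome were chosen after the data were seen, and probes of neighbouring genes are not independent.

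**Figure D5:**
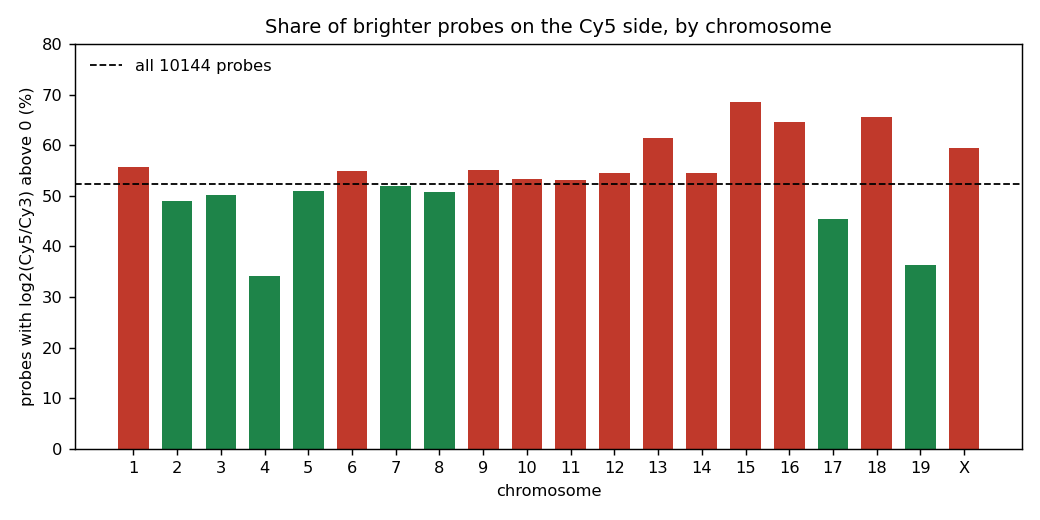
Percent of probes with a log2(Cy5/Cy3) above 0 on each chromosome, among probes with a log2 brightness of 8 or more, with the share over all 10144 such probes as a dashed line. Bars above that line are red and bars below it green. Chromosomes 15, 18 and 16 are highest at 68.5, 65.6 and 64.5%, and chromosomes 4 and 19 lowest at 34.2 and 36.4%.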

How the data were processed

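RNA of liver tumour and nontumour liver was hybridised to 1 two-colour Agilent mouse array. Total RNA (500 ng) was amplified linearly and given its dye, per the labels' protocols, and per the submitters' processing notes the scan was read with Agilent Feature Extraction 8.5.1.1. Per the file headers, the deposited intensity columns hold each spot's mean signal and the median of its local background, not normalized, and processed intensities. The deposited log10 ratio is log10 of Cy5 over Cy3 processed intensity, and the deposited p-value is that of the scanner's error model for 1 spot, per the file headers. The authors' deposited table lists the same log10 ratio for the liver spots.

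Backgrounds were corrected with normexp (offset 50), which pulls ratios of dim genes towards 0. Ratios were normalized by loess with control spots at weight 0, in limma 3.58.1 under R 4.3.3. Both steps were checked on simulated data with known changes in brighter spots only, so the check does not cover dim genes. The simulated dye trend fell with brightness, whereas the raw ratio of this array rose with it. Spots flagged as outliers (3 gene spots), probes not well above background in either channel and probes saturated in both were left out. Spots of a probe and probes of a gene were averaged. Errors are the SD between probes or, for 1 probe, the scanner's log2 error, and hold measurement error alone. Probes printed several times (40) had a median SD of 0.05 between spots, and different probes of a gene a pooled SD of 0.18 over 8149 genes. The median gene spot read 180 (Cy3) and 152 (Cy5), the median negative control 127 and 67.7, and 84.1% and 90.0% of them were well above background. The number of arrays limits the precision.

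Of 41174 probes, 23082 were named by accession, 6582 by symbol and 3060 by synonym through a RefSeq table of GRCm38.p6, and 8450 kept the file's name. Later steps used Python 3.11.15, numpy 2.4.6 and pandas 2.3.3. The named genes are the 15 highest and 15 lowest past 2-fold whose probes all lie on the same side with a scanner p-value under 0.01, up to 5 members of each of 48 gene lists in each direction, and genes the lists refer to; other genes past 2-fold, relatives and neighbours were added after their values were seen. The members and lists were chosen with earlier results of these data known.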

Additional observations from a re-analysis of the deposited data

How the results depend on the processing

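The number of Cy5-high and Cy3-high genes moved by over 1.5 times under 3 of the 9 alternatives: to 72 and 57 with a normexp offset of 16, to 540 and 420 with the scanner software's own ratio, and to 110 and 7 with median centring without loess. The Cy5-high percent of these genes, 68.4 with the main setting, was 55.8, 56.2 and 94.0 under the same alternatives. The smaller offset and the scanner's ratio leave the ratios of dim probes wider by construction, and median centring leaves the brightness trend in place. Under the other 6 (well above background in both channels, no brightness filter, no spots saturated in either channel, outlier spots kept, the brightest probe of each gene, and the background surface fitted by the scanner software, which was chosen after seeing the data) the counts were within 1.5 times. None of the 30 named genes changed sign under any alternative, and 10 of the Cy3-high ones were under 2-fold with median centring. List medians changed sign for 23 of 48 lists with median centring and for at most 3 of 48 under each other alternative, so small medians have no settled side. Slpi was at -0.67 with no brightness filter, where a dim probe enters its mean. No paired analysis was possible because the array has no replicate, and no replicate could be left out. Depth does not apply to intensities; dim genes near the negative controls have wide errors, such as Gpc3 with a scanner error of 0.92.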
